A study of Arabidopsis thaliana with 10 samples.

Results

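The Arabidopsis thaliana XTH family comprises 33 genes, XTH1 to XTH33, and its transcripts were followed across 5 genotypes. Members were chosen by their 33 locus identifiers out of 33602 genes in the deposited count table, whose descriptions carried the same XTH name for each. Messenger RNA came from leaves of untreated, soil-grown plants aged 4 weeks, with 2 libraries per genotype and 10 in all. The series text describes more replicates per genotype than the 2 libraries used here. The genotypes were wild type Col-0, the mutant pnet2_ab, and 3 lines in that mutant. The lines are labelled as carrying 35S:NTL6-SRDX in the first, 35S:NTL9-SRDX in the second and 35S:NTL12-SRDX in the third, so pnet2_ab is their control. PNET2 proteins are residents of the inner nuclear membrane. The NTL group of NAC transcription factors is tethered to membranes, SRDX is a repression domain that turns a fused transcription factor into a repressor, and 35S is a viral promoter active in most plant cells. The number of independent transformants behind each line, and whether the libraries of a genotype came from separate plants, are not given in the sources used here, so the spread behind each p-value is that between these libraries and may be technical.

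XTH enzymes act in the cell wall on xyloglucan, the glucan that lies between cellulose microfibrils. Most cut a xyloglucan chain and join the new end to another chain (endotransglucosylation), and a few hydrolyse it. By sequence the family falls into group I (XTH1 to XTH11), group II (XTH12 to XTH26), group III-A (XTH31 and XTH32) and group III-B (XTH27 to XTH30 and XTH33), and group III-A is the one known for hydrolases. Individual members are known for induction by touch, brassinosteroid, shade, wounding or cutting.

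Libraries held 22.6 to 28.3 M counts. A gene with no counts in a library could have had up to 3 at 95% confidence, which is 0.0978 to 0.15 counts per 1 M counts (CPM), and this limit covers counting error only. Leaf genes were abundant in every library: 5 photosynthesis genes (RBCS1A, RBCS3B, LHCB1.2, LHCB1.3 and LHCB2.1) summed to 44704 to 75203 CPM. The gene NTL6 had 18.1 and 19.7 CPM in the NTL6-SRDX line against 23.8 and 27.1 CPM in pnet2_ab, and NTL9 had 27.7 and 22.9 CPM in the NTL9-SRDX line against 26.5 and 25.5 CPM. The log2 differences were -0.43 ± 0.13 (edgeR adjusted p = 0.0247) and -0.04 ± 0.13 (adjusted p = 0.869). Neither gene was higher in the line labelled with it, so the lines are called by their labels throughout (the NTL6-labelled line and so on). NTL6 was highest in the NTL12-labelled line, at 36.5 and 29.5 CPM. There it was above wild type (log2 change 0.82 ± 0.13, edgeR adjusted p = 4.88e-05) but did not pass the test against pnet2_ab (adjusted p = 0.0816). The NTL6-labelled line had less NTL6 than the NTL12-labelled line (log2 difference -0.81 ± 0.13, adjusted p = 0.000122). One NTL12-labelled library, the second, is titled NTL12 while its genotype label reads NTL2, and its title was followed. The sources used here give no locus for NTL12 or for the genes mutated in pnet2_ab, and these were not checked.

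Counts were recorded for 28 of the 33 members. XTH1, XTH2, XTH3, XTH13 and XTH21 had 0 counts in all 10 libraries. XTH12 had 4 counts, all in the second pnet2_ab library, and XTH26, a gene known from root hairs, had 1 count. These 7 genes did not pass the filter on low counts, which left 26 members for testing, 8 of group I, 11 of group II and all 7 of group III.

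The family's transcript pool differed in make-up between wild type and pnet2_ab. Levels between genes were compared in the authors' FPKM (fragments per kilobase of transcript and per 1 M fragments), the scale that accounts for transcript length. The 33 members summed to 886 and 972 FPKM in wild type and to 799 and 774 FPKM in pnet2_ab. Group I held 67.7% and 69.7% of that sum in wild type and 53.5% and 49.9% in pnet2_ab. Group II held 8.09% and 8.02% in wild type and 22.6% and 27.3% in pnet2_ab, while group III-A held 12.1% and 12% against 5.44% and 5.24%. Group III-B held 12% and 10.3% in wild type against 18.5% and 17.6% in pnet2_ab. In all 4 groups the ranges of the 2 genotypes did not overlap. In the lines group II held 12.5% and 12.3% (NTL6-labelled), 11.7% and 12.2% (NTL9-labelled) and 19.3% and 19.8% (NTL12-labelled), all between wild type and pnet2_ab. The shares are a description of the sums and were not tested.

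**Figure D1:**
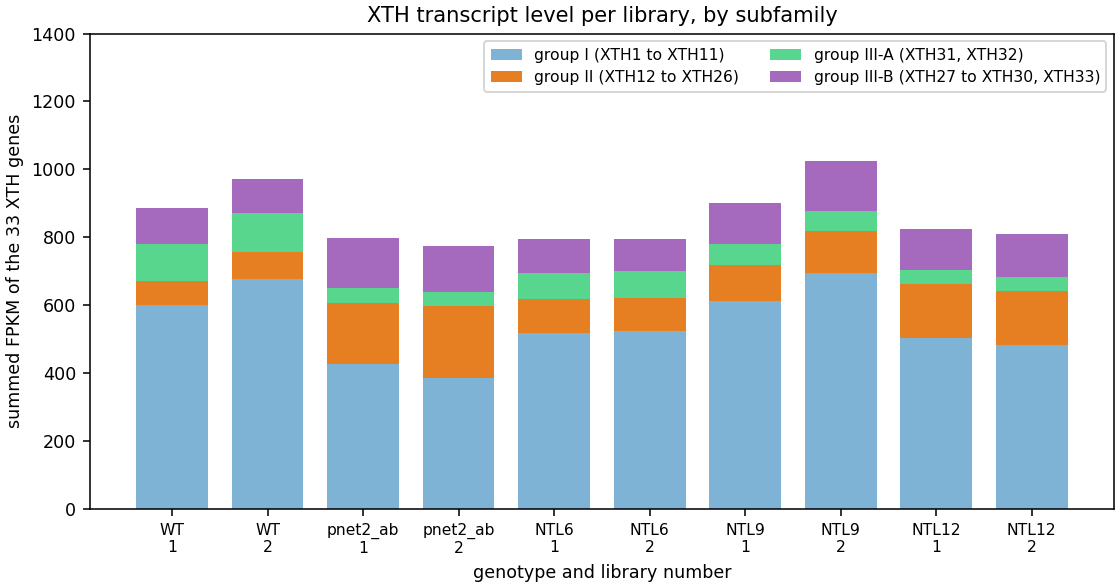
Summed FPKM of the 33 XTH genes (vertical axis) in each of the 10 libraries (horizontal axis, genotype and library number), stacked by subfamily. NTL6, NTL9 and NTL12 stand for the SRDX lines so labelled. The group II segment is smallest in the 2 wild type libraries (71.6 and 78.0 FPKM) and largest in the 2 pnet2_ab libraries (181 and 211 FPKM).

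A few genes made up most of the pool. In wild type the 6 most abundant members were XTH4, XTH6, XTH7, XTH9, XTH27 and XTH31, which held 80.8% and 82.2% of the summed FPKM. XTH4 and XTH9 are known from growing tissue and wood formation, and XTH27 from differentiating vein cells of the leaf. In pnet2_ab, XTH24 (a gene first isolated from meristems) took the place of XTH31 among the leading 6, which held 69.1% and 67.5%. XTH9 had the highest FPKM of the family in 8 of the 10 libraries, at 118 to 215 FPKM over all 10, and XTH6 was the highest in the first wild type library and the second NTL12-labelled library. XTH19 moved from 0.217 and 0 FPKM in wild type to 39.7 and 35.6 FPKM in pnet2_ab, the latter above the 32.6 and 32.8 FPKM of XTH16 in the same libraries.

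Several of these genes lie next to each other. XTH24, XTH18 and XTH19 are consecutive genes on chromosome 4 with the same orientation, with 5215 bases between XTH24 and XTH18 and 1664 between XTH18 and XTH19. XTH23 and XTH14 are consecutive on the same chromosome, 412 bases apart. On chromosome 5 XTH13, XTH25 and XTH22 are consecutive, with XTH12 beyond XTH13 and 1 other gene between. XTH17 (chromosome 1), XTH18, XTH19 and XTH20 (chromosome 5) are close relatives: the coding sequence of XTH18 is 92.2% identical to that of XTH17, 88.8% to that of XTH19 and 85.6% to that of XTH20. How closely these genes resemble each other bears on how reads were assigned, so the 60 coding bases around the codons of the catalytic site are shown, read 5′ to 3′ on the coding strand from the RefSeq TAIR10.1 genome. Each lies within 1 exon. Capitals mark bases that differ from XTH19 at the same place, 5 in XTH18, 4 in XTH17 and 6 in XTH20.
XTH19 (chr4:14829546-14829605, minus strand): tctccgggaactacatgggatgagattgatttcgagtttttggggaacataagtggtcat
XTH18 (chr4:14826554-14826613, minus strand): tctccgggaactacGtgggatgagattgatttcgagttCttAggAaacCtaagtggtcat
XTH17 (chr1:24257664-24257723, plus strand): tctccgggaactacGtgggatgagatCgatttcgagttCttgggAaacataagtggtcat
XTH20 (chr5:19482547-19482606, plus strand): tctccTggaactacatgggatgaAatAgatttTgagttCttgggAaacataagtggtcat
XTH18 and XTH19 share 19 identical stretches of 50 coding bases, and XTH17 and XTH19 share 2. Of the 50-base stretches of XTH18 2.38% occur in another member, and of those of XTH19 2.68%. Reads from such stretches cannot be told apart, and the handling of reads that map to several places is not given in the sources used here. XTH17, the closest relative of XTH18, had 2.1 and 2.76 CPM in wild type against 1.60 and 1.75 CPM in pnet2_ab and did not pass the test (log2 change -0.54 ± 0.45 SE, edgeR adjusted p = 0.395).

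In pnet2_ab 12 of the 26 tested members were higher than in wild type and 5 were lower, at an adjusted p under 0.05 in edgeR's quasi-likelihood test with Benjamini-Hochberg adjustment over 20334 genes. Over all tested genes 17.2% were higher and 16.8% lower, so the share of lower members lies near the background and the share of higher members (46.2%) above it. The direction went with the subfamily. In group II 9 of 11 tested members rose and the other 2 did not pass the test, with a median log2 fold change of 2.39, against a median of 0.04 over all tested genes. These 9 include XTH20, which passed the filter on low counts only through pnet2_ab. The number risen in group II was 8 to 10 over the alternatives tried. In group III-B 3 of 5 rose, in group I 4 of 8 fell and 4 did not pass the test (median -0.49), and of the 2 genes of group III-A XTH31 fell. Since bulk leaf RNA was measured, fewer cells of a type and less RNA per cell cannot be told apart.

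**Figure D2:**
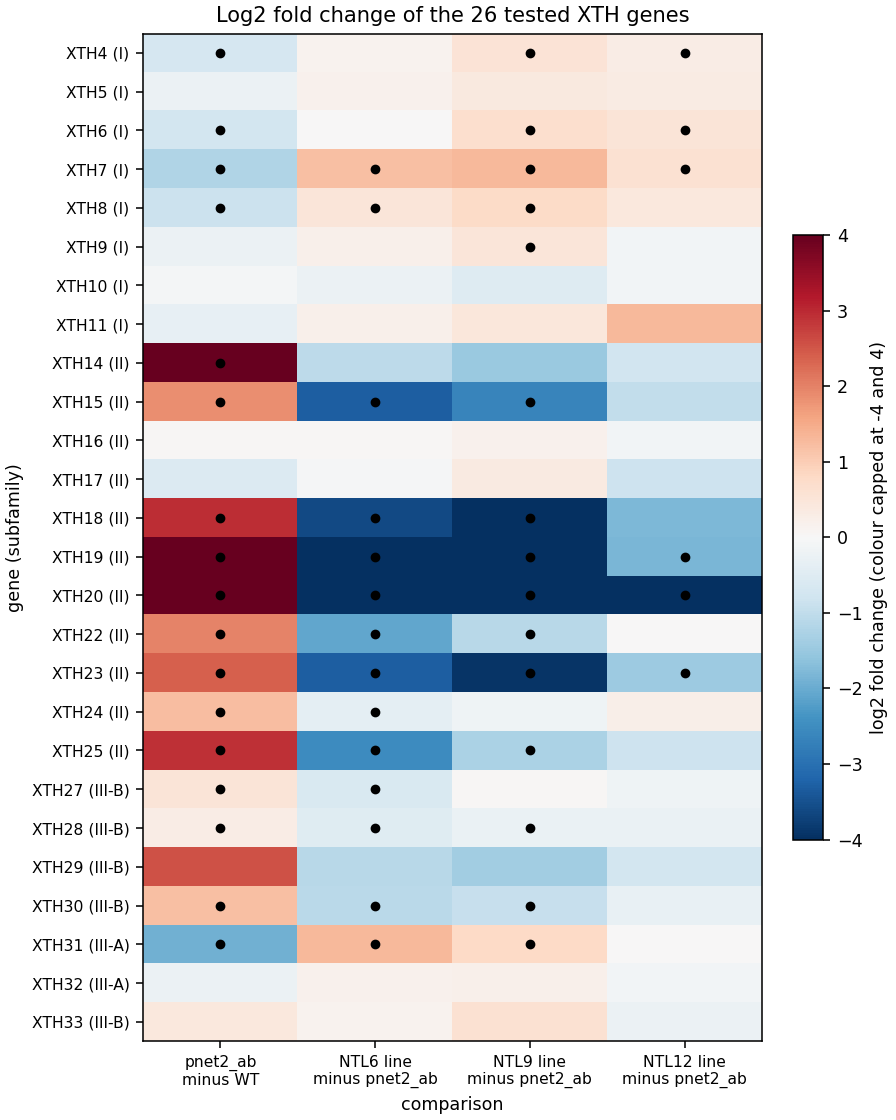
Log2 fold change (colour) of the 26 tested XTH genes (rows, with subfamily) in pnet2_ab against wild type and in the 3 SRDX lines, named by their labels, against pnet2_ab (columns). Dots mark an adjusted p under 0.05. Colours are capped at -4 and 4, and the fitted values of XTH14 and XTH20 depend on the prior count where a genotype had 0 counts. The lines share pnet2_ab with the leftmost column, so opposite colours in the columns are not independent.

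Among the members with counts in wild type, XTH19 showed the largest rise. This gene (AT4G30290, chromosome 4, 14828712 to 14830016 on the minus strand) is known from roots and from the healing of cut stems. It had 0.250 and 0 CPM in wild type, which is 5 counts in all, and 45.8 and 41.1 CPM in pnet2_ab. Both pnet2_ab libraries thus lay far above both wild type libraries (log2 fold change 8.46 ± 0.38 SE, adjusted p = 3.06e-13). Without the second wild type library the log2 fold change was 7.40, and without the first library wild type had no counts of XTH19. The shift to 7.40 is larger than the SE, which is derived from the test statistic and is too narrow for a value resting on 5 counts. Its neighbour XTH18 had 0.750 and 0.446 CPM in wild type, against 6.23 and 3.06 CPM in pnet2_ab (log2 change 2.96 ± 0.67, adjusted p = 0.00141). The ranges of XTH18 did not overlap, although its pnet2_ab libraries lay apart, and without the first of them the change was 2.35. XTH24, the third gene of the row, had 36.7 and 32.8 CPM against 67.0 and 96.9 CPM (log2 change 1.24 ± 0.12, adjusted p = 6.58e-08).

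XTH14 and XTH20 had 0 counts in both wild type libraries. XTH14 (AT4G25820, chromosome 4, 13130297 to 13131788 on the plus strand), known from roots and root hairs, had 1.96 and 1.67 CPM in pnet2_ab. Set against a floor of 3 counts over both wild type libraries, that is at least 25.9-fold higher (adjusted p = 0.000141). XTH20 had 0.554 and 1.14 CPM in pnet2_ab, at least 11.5-fold higher (adjusted p = 0.0112). It had counts in no other genotype, so it passed the filter on low counts only through pnet2_ab. Its calls against pnet2_ab, here and in the lines, are therefore not independent of the filter, though the counts of members include it. XTH20 was the weakest call of the group: adjusted p was 0.313 with DESeq2, 0.0735 or 0.0822 on leaving out a wild type library (the first or the second) and 0.0952 on leaving out the second pnet2_ab library.

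XTH22, known as TCH4 for its induction by touch and by brassinosteroid, had 7.20 and 7.71 CPM in wild type, against 22.9 and 36.1 CPM in pnet2_ab. Its pnet2_ab libraries differed from each other but both lay above wild type (log2 change 1.98 ± 0.26, adjusted p = 2.62e-06). XTH25, its neighbour on chromosome 5, had 0.500 and 0.624 CPM against 3.42 and 5.26 CPM (log2 change 2.93 ± 0.51, adjusted p = 9.68e-05). XTH23, the upstream neighbour of XTH14, had 2.45 and 1.78 CPM against 12.4 and 9.70 CPM (log2 change 2.39 ± 0.29, adjusted p = 1.13e-06). XTH15, a gene known for its response to shade, had 2.05 and 3.88 CPM against 9.85 and 11.9 CPM (log2 change 1.87 ± 0.34, adjusted p = 0.000178). In all 9 risen members of group II the lower pnet2_ab library was above the higher wild type library. The remaining tested members of the group, XTH16 and XTH17, did not pass the test.

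**Figure D3:**
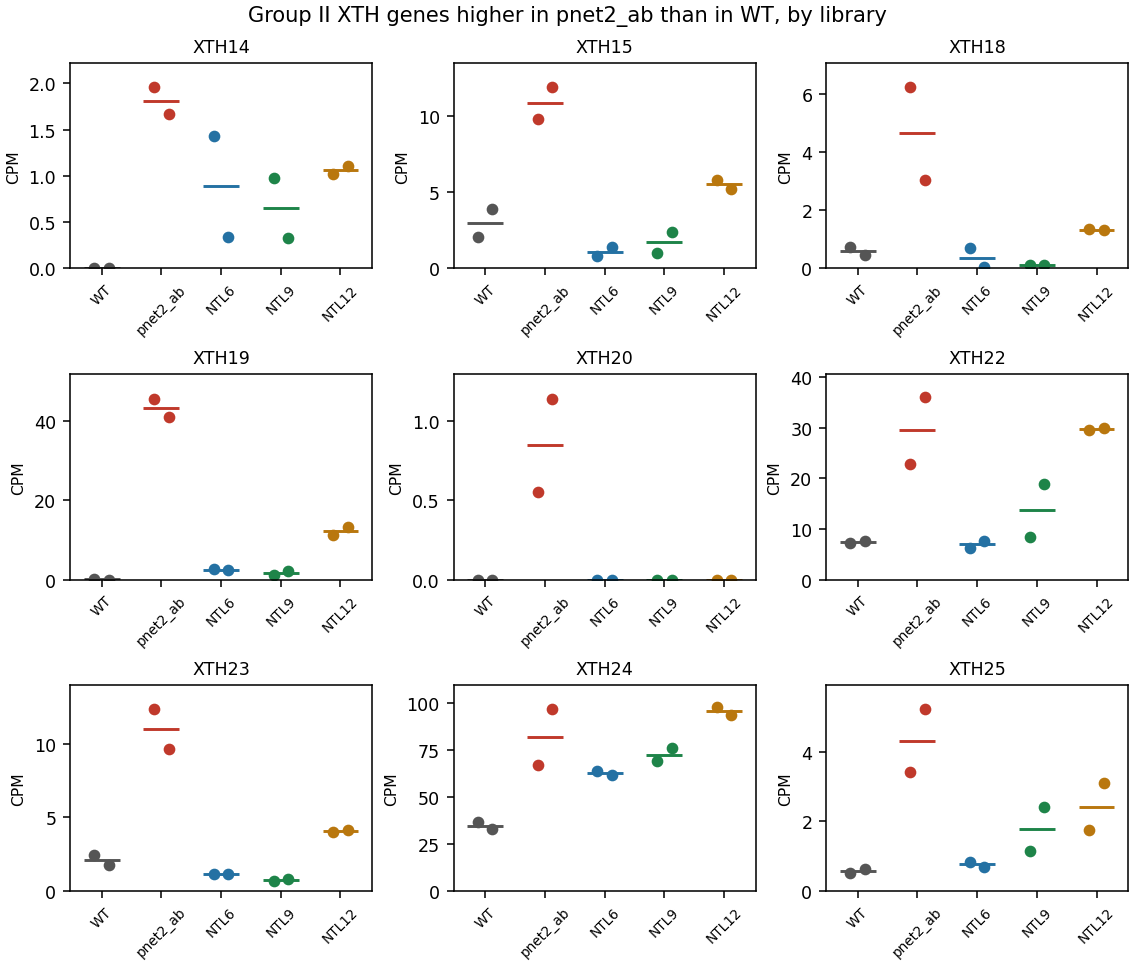
CPM (vertical axis, linear, each panel with its own scale from 0) of the 9 group II genes that were higher in pnet2_ab than in wild type, by genotype (horizontal axis). Points are the 2 libraries of a genotype and bars their mean. XTH19 lies at 0.250 and 0 CPM in wild type, at 45.8 and 41.1 CPM in pnet2_ab and at 11.2 and 13.3 CPM in the NTL12-labelled line.

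In group III-B 3 members rose. XTH27 had 81.6 and 79.9 CPM in wild type, against 126 and 107 CPM in pnet2_ab (log2 change 0.53 ± 0.10, adjusted p = 0.000363). XTH28, known from stamen filaments, had 63.3 and 57.3 CPM against 73.8 and 74.5 CPM (log2 change 0.30 ± 0.08, adjusted p = 0.00784). XTH30 had 3.10 and 2.32 CPM against 5.68 and 6.80 CPM (log2 change 1.2 ± 0.31, adjusted p = 0.00421). The changes of XTH27 and XTH28 were smaller than those of the risen group II genes, while that of XTH30 was close to that of XTH24. The groups were not tested against each other. Leaving out the second wild type library ended the calls of XTH28 and XTH30 (log2 changes 0.21 and 0.99). XTH29 had 0.10 and 0.134 CPM against 0.620 and 0.815 CPM and missed the threshold (log2 change 2.55 ± 1.0, adjusted p = 0.0524), and XTH33, whose protein is anchored in the plasma membrane, had an adjusted p of 0.715.

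XTH31 showed the largest fall. This gene (AT3G44990, chromosome 3, 16446975 to 16448764 on the minus strand) encodes an enzyme known mainly as a xyloglucan hydrolase. It had 113 and 122 CPM in wild type, against 32.4 and 28.9 CPM in pnet2_ab, so that both mutant libraries lay far below both wild type libraries (log2 change -1.94 ± 0.09, adjusted p = 6.15e-13). XTH32, the other gene of group III-A, had 27.8 and 30.4 CPM against 24.8 and 24.6 CPM and did not pass the test (log2 change -0.24 ± 0.12, adjusted p = 0.132).

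In group I the falls were smaller and concerned abundant genes. XTH7 (AT4G37800, chromosome 4, 17775474 to 17777397 on the minus strand) had 150 and 178 CPM in wild type, against 74.2 and 69.6 CPM in pnet2_ab (log2 change -1.19 ± 0.08, adjusted p = 2.78e-10). XTH8 had 26.2 and 26.3 CPM against 14.4 and 14.5 CPM (log2 change -0.86 ± 0.12, adjusted p = 1.01e-05). For both genes each pnet2_ab library lay well below each wild type library. XTH6 had 173 and 179 CPM against 113 and 99.7 CPM (log2 change -0.73 ± 0.09, adjusted p = 1.03e-06). XTH4 had 173 and 197 CPM against 124 and 109 CPM (log2 change -0.66 ± 0.08, adjusted p = 1.56e-06). XTH9 had 170 and 203 CPM against 164 and 151 CPM, with ranges that did not overlap, and missed the threshold (log2 change -0.24 ± 0.10, adjusted p = 0.0760). XTH5, XTH10 and XTH11, the other tested members, lay under 7 CPM in every library and had adjusted p of 0.556, 0.939 and 0.731.

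**Figure D4:**
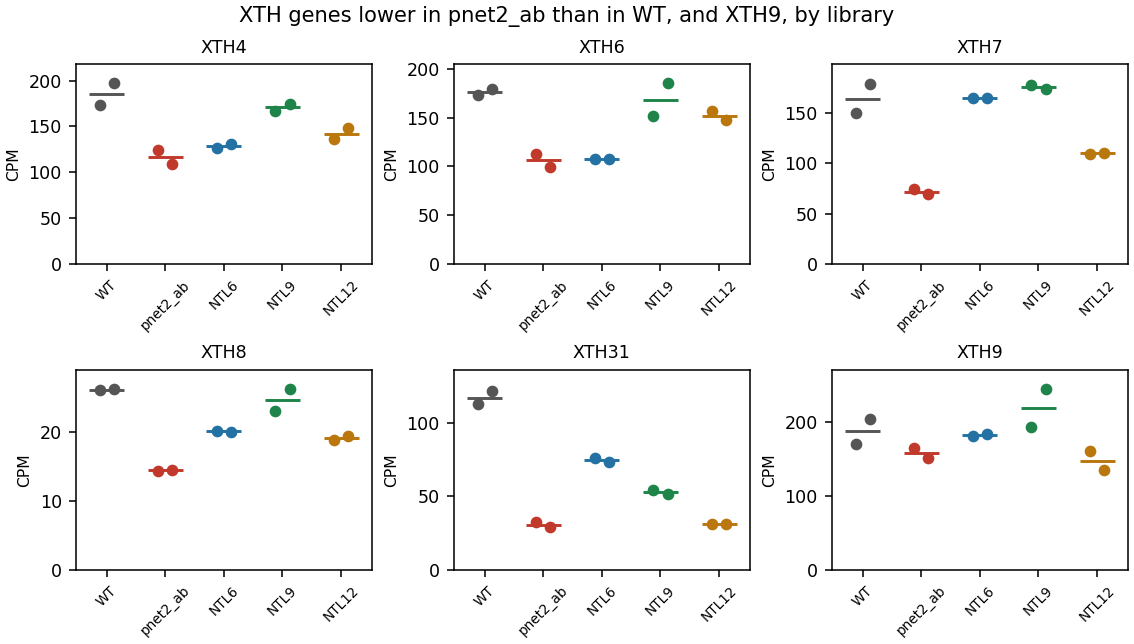
CPM (vertical axis, linear, each panel with its own scale from 0) of the 5 XTH genes that were lower in pnet2_ab than in wild type, and of XTH9, by genotype (horizontal axis). Points are the 2 libraries of a genotype and bars their mean. XTH31 lies at 113 and 122 CPM in wild type and at 32.4 and 28.9 CPM in pnet2_ab, and the NTL12-labelled line (31.3 and 31.1 CPM) overlaps pnet2_ab.

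The promoters of the genes with the 2 largest fitted falls and the 2 largest fitted rises are shown to give the sequence just before their RefSeq starts. Each is the 250 bases before the gene's start in RefSeq (TAIR10.1), 5′ to 3′ on the gene's strand, with no other annotated gene in the window. Capitals mark letters of any of 7 motifs searched on both strands, with overlaps between motifs allowed: CACGTG (G-box), CATGTG and TTNCGTA (bound by NAC factors, the former also by phytochrome-interacting factors), TTGACC and TTGACT (W-box), and CGTGTG and CGTGCG (brassinosteroid response elements).
XTH31 (chr3:16448845-16449094, minus strand): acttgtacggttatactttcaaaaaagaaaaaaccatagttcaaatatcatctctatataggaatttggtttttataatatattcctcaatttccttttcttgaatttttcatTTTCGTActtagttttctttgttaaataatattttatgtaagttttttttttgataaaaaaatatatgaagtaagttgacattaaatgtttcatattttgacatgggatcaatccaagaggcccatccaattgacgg
XTH7 (chr4:17777446-17777695, minus strand): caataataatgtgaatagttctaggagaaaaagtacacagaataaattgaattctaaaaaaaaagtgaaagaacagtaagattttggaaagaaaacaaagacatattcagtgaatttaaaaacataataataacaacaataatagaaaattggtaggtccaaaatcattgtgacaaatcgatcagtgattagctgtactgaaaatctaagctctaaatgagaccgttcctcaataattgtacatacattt
XTH14 (chr4:13130041-13130290, plus strand): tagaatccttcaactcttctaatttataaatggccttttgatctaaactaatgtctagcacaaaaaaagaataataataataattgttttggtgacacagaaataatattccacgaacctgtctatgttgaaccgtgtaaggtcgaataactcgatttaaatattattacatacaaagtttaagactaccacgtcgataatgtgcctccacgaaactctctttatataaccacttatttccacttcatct
XTH19 (chr4:14830225-14830474, minus strand): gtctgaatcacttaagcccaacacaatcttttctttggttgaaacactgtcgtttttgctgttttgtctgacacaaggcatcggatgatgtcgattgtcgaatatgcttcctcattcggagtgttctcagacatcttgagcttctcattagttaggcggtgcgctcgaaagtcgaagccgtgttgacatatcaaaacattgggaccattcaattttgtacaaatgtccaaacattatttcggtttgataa
Only the window of XTH31 held any of these letters, TTNCGTA beginning 137 bases before the start. That motif occurs in 9.73% of the 27443 windows of the same length before protein-coding genes, and in the family it also occurs before XTH6, XTH10, XTH13 and XTH24. CATGTG occurs in 11.1% of all windows and before 5 members (XTH17, XTH18, XTH25, XTH26 and XTH33). CGTGTG occurs in 5.37% of all windows and before 4 members (XTH2, XTH8, XTH23 and XTH25), TTGACC in 12.2% and before 4 (XTH2, XTH8, XTH20 and XTH32), and TTGACT in 19.1% and before 2 (XTH18 and XTH22). CACGTG (6.49% of all windows) and CGTGCG (1.57%) occur before no member. A match is a description of the letters, and RefSeq gene starts differ from the authors' gene models: 1 of the 33 members had identical start and end in both. In the authors' model XTH19 starts at 14830016 on the minus strand, while its window begins at 14830225. The bases between were neither shown nor searched.

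In the NTL6-labelled line 11 of the 12 members that had risen in pnet2_ab were lower than in pnet2_ab, XTH14 being the exception, and 3 of the 5 that had fallen were higher. Of all 26 tested members 42.3% were lower and 11.5% higher in this comparison, beside 9.35% and 8.75% of all tested genes. The 12 and 5 members were picked by their level in pnet2_ab, so the share of all genes is no background for them. Since each line is compared with the same pnet2_ab libraries that were compared with wild type, the 2 sets of values are not independent and are given side by side. XTH19 had 2.58 and 2.38 CPM, against 45.8 and 41.1 CPM in pnet2_ab (log2 change -4.13 ± 0.24, adjusted p = 7.29e-11). XTH23 had 1.15 and 1.11 CPM (log2 change -3.28 ± 0.31, adjusted p = 1.16e-07), and XTH15 had 0.793 and 1.42 CPM (log2 change -3.29 ± 0.38, adjusted p = 1.67e-06). In these 3 genes each library of the line lay below both pnet2_ab libraries. XTH22 had 6.22 and 7.71 CPM (log2 change -2.08 ± 0.25, adjusted p = 4.13e-06), and XTH25 had 0.832 and 0.690 CPM (log2 change -2.50 ± 0.48, adjusted p = 0.000720). XTH18 had 0.714 and 0.0383 CPM (log2 change -3.62 ± 0.69, adjusted p = 0.000705), with libraries that differed widely. Its change was -6.75 without the first NTL6-labelled library, -2.7 without the second and -3.01 without the first pnet2_ab library.

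The other members lower in the NTL6-labelled line changed less or rested on few counts. XTH20 had 0 counts, at least 13.9-fold lower than pnet2_ab (adjusted p = 0.0152). XTH27 had 81.3 and 72.7 CPM (log2 change -0.60 ± 0.10, adjusted p = 0.000250), XTH28 52.4 and 53.5 CPM (log2 change -0.49 ± 0.08, adjusted p = 0.000216) and XTH30 2.93 and 2.95 CPM (log2 change -1.08 ± 0.30, adjusted p = 0.0148). XTH24 had 64.1 and 61.6 CPM (log2 change -0.38 ± 0.12, adjusted p = 0.0281). The calls of XTH20, XTH24 and XTH30 were each lost without the first or the second library of the line (adjusted p between 0.0789 and 0.152) and without the second pnet2_ab library (0.127, 0.663 and 0.0978), and that of XTH20 also with DESeq2 (0.366). The call of XTH24 was also lost with only the 2 genotypes compared (edgeR adjusted p = 0.0709). XTH14 had 1.43 and 0.345 CPM and did not pass the test (adjusted p = 0.345).

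Of the fallen genes, XTH7 had 165 and 165 CPM in the NTL6-labelled line (log2 change 1.2 ± 0.08, adjusted p = 8.38e-10) and XTH31 had 76.5 and 73.7 CPM (log2 change 1.29 ± 0.09, adjusted p = 1.02e-09). Both lay above pnet2_ab in each library. XTH8 had 20.3 and 20.1 CPM (log2 change 0.48 ± 0.12, adjusted p = 0.00829), and this call was lost without the first library of the line (adjusted p = 0.0511). XTH4, with 126 and 131 CPM, and XTH6, with 108 and 107 CPM, did not pass the test (adjusted p = 0.284 and 0.936).

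In the NTL9-labelled line 9 of the 12 risen members were lower than in pnet2_ab and all 5 fallen members were higher. Of all 26 tested members 34.6% were lower and 23.1% higher, beside 10.8% lower and 11.6% higher over all tested genes. XTH19 had 1.19 and 2.1 CPM (log2 change -4.72 ± 0.25, adjusted p = 1.70e-11) and XTH23 had 0.637 and 0.822 CPM (log2 change -3.91 ± 0.33, adjusted p = 1.68e-08). XTH18 had 0.127 and 0.123 CPM (log2 change -5.16 ± 0.81, adjusted p = 5.65e-05), which was -4.55 without the first pnet2_ab library. All 3 genes were far below pnet2_ab in each library. XTH15 had 1.02 and 2.42 CPM (log2 change -2.65 ± 0.36, adjusted p = 9.81e-06), XTH22 8.45 and 18.9 CPM (log2 change -1.10 ± 0.24, adjusted p = 0.00169) and XTH25 1.15 and 2.42 CPM (log2 change -1.27 ± 0.44, adjusted p = 0.0434). In these genes the second library of the line was well above the first, and without it the changes were -3.41, -1.80 and -1.91. The call of XTH25 was lost without the first library of the line (adjusted p = 0.329) or the second pnet2_ab library (0.304).

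XTH20 had 0 counts in the NTL9-labelled line, at least 13.0-fold lower than pnet2_ab (adjusted p = 0.0136), and this call was lost without either library of the line (adjusted p = 0.107 and 0.112) without the second pnet2_ab library (0.118) and with DESeq2 (0.357). XTH28 had 60.7 and 62.6 CPM (log2 change -0.27 ± 0.08, adjusted p = 0.0232) and XTH30 2.25 and 4.27 CPM (log2 change -0.93 ± 0.30, adjusted p = 0.0294). The call of XTH28 was lost without any 1 of the 4 libraries compared (adjusted p between 0.0752 and 0.149), and that of XTH30 without the first library of the line (0.333) or the second of pnet2_ab (0.158). The call of XTH30 was also lost with only the 2 genotypes compared (edgeR adjusted p = 0.0576). XTH14, XTH24 and XTH27 did not pass the test. With the second pnet2_ab library left out, 5 members were lower in place of 9.

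All the fallen genes of group I were higher in the NTL9-labelled line than in pnet2_ab. XTH7 had 178 and 174 CPM (log2 change 1.29 ± 0.08, adjusted p = 2.64e-10), XTH8 23.0 and 26.3 CPM (log2 change 0.77 ± 0.12, adjusted p = 6.88e-05), XTH6 152 and 185 CPM (log2 change 0.66 ± 0.09, adjusted p = 7.55e-06) and XTH4 167 and 175 CPM (log2 change 0.55 ± 0.08, adjusted p = 3.76e-05). XTH31 had 54.7 and 51.6 CPM (log2 change 0.79 ± 0.09, adjusted p = 1.02e-06). In these 5 genes both libraries of the line lay above both of pnet2_ab. XTH9, which had missed the threshold in pnet2_ab, was also higher, with 193 and 244 CPM (log2 change 0.47 ± 0.10, adjusted p = 0.00175), and this call was lost without the second library of the line (adjusted p = 0.0689).

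The NTL12-labelled line differed from pnet2_ab in fewer members: 3 were lower and 3 higher, beside 3.84% lower and 3.11% higher over all tested genes. XTH19 had 11.2 and 13.3 CPM, between wild type and pnet2_ab (log2 change -1.83 ± 0.20, adjusted p = 6.26e-06). XTH23 had 3.98 and 4.14 CPM (log2 change -1.44 ± 0.27, adjusted p = 0.00169), and this call was lost without the first pnet2_ab library (adjusted p = 0.0537). XTH20 had 0 counts, at least 13.8-fold lower (adjusted p = 0.0338), and that call was lost without either library of the line or of pnet2_ab (adjusted p between 0.0793 and 0.231) and with DESeq2 (0.488). With the first pnet2_ab library left out, 1 member of the family was lower in place of 3.

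XTH22 had 29.6 and 29.9 CPM and XTH24 had 98.3 and 93.7 CPM in the NTL12-labelled line, overlapping pnet2_ab (adjusted p = 0.982 and 0.282). XTH15 had 5.84 and 5.24 CPM and XTH18 had 1.36 and 1.31 CPM, below pnet2_ab in each library but past no threshold (adjusted p = 0.0749 and 0.0816). XTH7 was higher than in pnet2_ab, with 109 and 111 CPM (log2 change 0.61 ± 0.08, adjusted p = 4.43e-05), and so was XTH6, with 156 and 147 CPM (log2 change 0.51 ± 0.09, adjusted p = 0.000707). XTH4 had 136 and 148 CPM (log2 change 0.28 ± 0.08, adjusted p = 0.0428), and this call was lost without either library of the line (adjusted p = 0.0852 and 0.292), the second pnet2_ab library (0.321) or either NTL6-labelled library (0.0564 and 0.0556), and with total-count scaling (0.139). XTH31 had 31.3 and 31.1 CPM, within the range of pnet2_ab (log2 difference 0.03 ± 0.09, adjusted p = 0.922).

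The lines were also tested against each other. Of the 12 members that rose in pnet2_ab, 7 were lower in the NTL6-labelled than in the NTL12-labelled line, and 6 were lower in the NTL9-labelled than in the NTL12-labelled line (edgeR, the same fit). The others did not pass the test. Over the whole family 8 members were lower and 3 higher in the NTL6-labelled than in the NTL12-labelled line, beside 8.45% and 8.99% of all tested genes. In the NTL9-labelled against the NTL12-labelled line 6 were lower and 5 higher, beside 7.07% and 9.22%. XTH19 differed by -2.30 ± 0.24 (adjusted p = 5.16e-07) and -2.89 ± 0.26 (adjusted p = 7.28e-08) in these comparisons, and XTH22 by -2.09 ± 0.26 (adjusted p = 4.23e-06) and -1.12 ± 0.24 (adjusted p = 0.00236). The latter was lost with DESeq2 (adjusted p = 0.0530), and was -1.82 without the second NTL9-labelled library. The NTL6-labelled and NTL9-labelled lines differed in 5 members, 1 higher and 4 lower in the former, beside 1.95% and 4.1% of all tested genes. XTH31 was higher in the NTL6-labelled line (log2 change 0.50 ± 0.09, adjusted p = 0.000895), and XTH27 (log2 change -0.66 ± 0.10, adjusted p = 0.000342), XTH6 (log2 change -0.65 ± 0.09, adjusted p = 6.54e-05), XTH4 (log2 change -0.41 ± 0.08, adjusted p = 0.00343) and XTH22 (log2 change -0.98 ± 0.26, adjusted p = 0.0253) were lower. The difference in XTH22 was lost without the second NTL9-labelled library (-0.28, adjusted p = 0.720) and without either NTL6-labelled library (0.218 and 0.0597), and with DESeq2 (0.198), and that in XTH4 without the first NTL6-labelled library (0.0580), which left 2 lower members in place of 4. Without the second NTL9-labelled library 3 members in place of 5 were higher in that line than in the NTL12-labelled line.

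Each line was also set against wild type. In the NTL6-labelled line 3 members were higher (XTH14, XTH19 and XTH24) and 5 lower (XTH4, XTH6, XTH8, XTH15 and XTH31), beside 10.9% and 12.6% of all tested genes. In the NTL9-labelled line 6 were higher (XTH14, XTH19, XTH22, XTH24, XTH25 and XTH27) and 2 lower (XTH23 and XTH31), beside 6.29% and 7.43%. In the NTL12-labelled line 8 were higher (XTH14, XTH19, XTH22, XTH23, XTH24, XTH25, XTH27 and XTH30) and 7 lower (XTH4, XTH7, XTH8, XTH9, XTH17, XTH31 and XTH32), beside 14.9% and 15.6%. XTH19 was above wild type in every line, by 4.33 ± 0.51 (adjusted p = 1.54e-06), 3.75 ± 0.55 (adjusted p = 7.50e-05) and 6.64 ± 0.41 (adjusted p = 1.04e-10) in the order above. Without the second wild type library these changes were 3.27, 2.69 and 5.57, shifts larger than the errors given. XTH31 was below wild type in every line, by -0.64 ± 0.09 (adjusted p = 7.14e-06), -1.14 ± 0.09 (adjusted p = 7.58e-09) and -1.91 ± 0.09 (adjusted p = 1.61e-12). XTH24 was above wild type in every line, by 0.86 to 1.47. XTH14 was at least 12.4-fold, 9.16-fold and 15-fold above wild type, which had 0 counts. In the NTL9-labelled line the call of XTH14 was lost without the first wild type library (adjusted p = 0.0510), the second (0.0606) or the first library of the line (0.0741). The fitted log2 change of XTH14, which depends on the prior count, moved from 7.46 to 6.11 without the first NTL6-labelled library and to 8.14 without the second, and from 7.02 to 6.06 and 7.61 without the first and second NTL9-labelled libraries. Several other calls were lost when a library was left out. In the NTL6-labelled line that of XTH8 was lost without either library of the line or of wild type (adjusted p between 0.0843 and 0.119), and that of XTH15 without the second wild type (0.205) or the first line library (0.130). In the NTL9-labelled line XTH22 was at 0.17 and XTH25 at 1.01 without the second line library, and both calls were lost. Both were also lost without the first or the second wild type library (XTH22 at 0.83 and 0.92, XTH25 at 1.51 and 1.82). Those of XTH25 and XTH23 were lost too with only the 2 genotypes compared (edgeR adjusted p = 0.0873 and 0.0751). The call of XTH22 was also lost with DESeq2 (0.187), and that of XTH23 without the first wild type (0.0552) or the first line library (0.0608). Without the first wild type library 3 members in place of 6 were higher in that line and 1 in place of 2 was lower. In the NTL12-labelled line 4 in place of 8 were higher without its second library, and 4 in place of 7 were lower without the second wild type library. There the calls of XTH8, XTH9, XTH17, XTH23, XTH25, XTH27, XTH30 and XTH32 were each lost without at least 1 of the 4 libraries compared (adjusted p between 0.0522 and 0.241). By mean CPM pnet2_ab was the highest genotype for 10 of the 26 tested members, wild type for 7, the NTL9-labelled line for 6, the NTL12-labelled line for 3 and the NTL6-labelled line for 0.

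Genes for the synthesis and trimming of xyloglucan, the substrate of XTH enzymes, were measured in the same fit. Of 19 such genes 1 was higher and 4 were lower in pnet2_ab than in wild type, with a median log2 fold change of 0.01. These are 5.26% and 21.1% of the list, beside 17.2% and 16.8% of all tested genes. BGAL10, a galactosidase that trims xyloglucan, had 95.6 and 94.3 CPM in wild type, against 132 and 129 CPM in pnet2_ab (log2 change 0.46 ± 0.08, adjusted p = 0.000160). XLT2, a galactosyltransferase, had 36.1 and 38.7 CPM against 26.9 and 27.8 CPM (log2 change -0.45 ± 0.11, adjusted p = 0.00199). XXT3, a xylosyltransferase of the family, fell from 3.35 and 5.22 CPM to 2.12 and 1.10 CPM (log2 change -1.40 ± 0.38, adjusted p = 0.00581). For each of these 3 genes the libraries of the 2 genotypes did not overlap. CSLC5 (-0.38, adjusted p = 0.0135) and XXT2 (-0.28, adjusted p = 0.0141) were also lower. In the lines against pnet2_ab 2 were higher and 2 lower (NTL6-labelled), 3 and 2 (NTL9-labelled), and 1 and 2 (NTL12-labelled). That is 5.26% to 15.8% of the list higher and 10.5% lower, beside 8.75%, 11.6% and 3.11% of all tested genes higher and 9.35%, 10.8% and 3.84% lower. XLT2 was higher in the NTL9-labelled line at 57.0 and 62.8 CPM (log2 change 1.13 ± 0.10, adjusted p = 7.10e-08).

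XTH22 is 1 of the touch genes, and the other classical touch genes encode calmodulin and its relatives. All 3 were higher in pnet2_ab than in wild type, beside 17.2% of all tested genes. CML12 (TCH3) had 44.5 and 45 CPM in wild type, 132 and 172 CPM in pnet2_ab, 101 and 101 CPM in the NTL6-labelled line, 86.2 and 58 CPM in the NTL9-labelled line, and 176 and 196 CPM in the NTL12-labelled line. It rose in pnet2_ab (log2 change 1.76 ± 0.13, adjusted p = 1.33e-09) and was lower than there in the first of these lines (log2 change -0.59 ± 0.13, adjusted p = 0.00223) and in the second (log2 change -1.07 ± 0.13, adjusted p = 2.50e-06). CML24 (TCH2) rose from 13.4 and 16.8 to 31.4 and 34.8 CPM (log2 change 1.13 ± 0.14, adjusted p = 1.15e-06), and CAM2, from 18.2 and 16.4 to 41.4 and 46.0 CPM (log2 change 1.33 ± 0.12, adjusted p = 1.28e-08). CML24 was also lower in the NTL6-labelled line (log2 change -0.44 ± 0.13, adjusted p = 0.0221) and CAM2 in the NTL9-labelled line (log2 change -0.33 ± 0.11, adjusted p = 0.0362). In the NTL12-labelled line CML12, CML24 and CAM2 did not pass the test against pnet2_ab (adjusted p = 0.185, 0.830 and 0.597).

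NAC071, NAC096 and NAC011 are NAC transcription factors known from cut Arabidopsis stems, where NAC071 binds the promoters of XTH19 and XTH20. All 3 were low, and higher in pnet2_ab than in wild type, beside 17.2% of all tested genes. NAC071 had 0.10 and 0.134 CPM in wild type, against 1.92 and 1.39 CPM in pnet2_ab (log2 change 3.76 ± 1.17, adjusted p = 0.0155). NAC096 had 0.500 and 0.134 CPM against 1.96 and 2.65 CPM (log2 change 2.87 ± 0.61, adjusted p = 0.000803). NAC011 had 0 counts in wild type, with 1.40 and 1.26 CPM in pnet2_ab, at least 19.0-fold higher (adjusted p = 0.000229). In the NTL6-labelled line NAC071 had 0.238 and 0.0767 CPM and was lower than in pnet2_ab (log2 change -3.36 ± 1.10, adjusted p = 0.0356). The other comparisons of these 3 genes between a line and pnet2_ab did not pass the test.

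Genes of 2 signals known to act on XTH genes, brassinosteroid and shade, were also measured. Of 6 brassinosteroid synthesis and breakdown genes, ROT3 was higher in pnet2_ab than in wild type (log2 change 0.84 ± 0.23, adjusted p = 0.00695), DWF4, which encodes the rate-limiting step, was lower (log2 change -0.69 ± 0.15, adjusted p = 0.00127), and 4 did not pass the test, so that 16.7% were called in each direction, at the background of 17.2% higher and 16.8% lower. Of 9 shade response genes 1, PAR1, was higher (log2 change 0.65 ± 0.23, adjusted p = 0.0342) and the others did not pass the test. The median log2 fold changes were 0.01 for the brassinosteroid and 0.42 for the shade genes. In the lines against pnet2_ab 3 brassinosteroid genes were lower in the NTL6-labelled line, 3 in the NTL9-labelled line and 1 in the NTL12-labelled line (50%, 50% and 16.7% of 6), and 3, 1 and 1 shade genes were lower (33.3%, 11.1% and 11.1% of 9). Over all tested genes 9.35%, 10.8% and 3.84% were lower in these comparisons.

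Markers of other organs were measured beside the family. The summed level of 8 floral organ genes was 2.7 and 2.81 CPM in the wild type libraries and 11.0 to 17.1 CPM in pnet2_ab, 5.68 to 6.42 CPM in the NTL6-labelled, 5.35 to 6.90 CPM in the NTL9-labelled and 8.15 to 8.69 CPM in the NTL12-labelled line. Of these 8 genes 3 (37.5%, beside 17.2% of all tested genes) were higher in pnet2_ab than in wild type and the others did not pass the test. SEP3, a floral organ identity factor, had 1.15 and 0.713 CPM in wild type, against 7.47 and 6.36 CPM in pnet2_ab (log2 change 2.90 ± 0.32, adjusted p = 2.41e-07), LFY had 0.05 and 0 against 1.70 and 0.978 CPM, and AP1 had 0 counts in wild type and in the NTL9-labelled and NTL12-labelled lines. SEP3 was the largest part of the sum in pnet2_ab. AG, of the same list, had a lower mean there, at 0.750 and 0.892 CPM in wild type against 0.685 and 0.326 CPM in pnet2_ab. The floral sum was highest in pnet2_ab. By mean CPM 7 of the 9 risen group II genes were also highest there. These 9 were picked as higher in pnet2_ab than in wild type, so that count partly follows from the choice. The part of floral tissue in their levels was not tested. Of 9 root markers 3 passed the filter on low counts: NRT2.1 rose (log2 change 3.75 ± 0.52, adjusted p = 6.28e-06), CASP1, an endodermis gene, fell from 0.850 and 0.713 CPM to 0.0326 and 0 CPM (adjusted p = 0.0168), and PYK10 did not pass the test (adjusted p = 0.556). CASP1 had at most 1 count in any library outside wild type. It passed the filter only through wild type, so its call is not independent of the filter. RHD6, a root hair gene, had 0 counts in every library. The 5 photosynthesis genes were all lower in pnet2_ab than in wild type, beside 16.8% of all tested genes. Against pnet2_ab 3 of the 5 were higher in the NTL6-labelled, 4 in the NTL9-labelled and 3 in the NTL12-labelled line. Over all tested genes 8.75%, 11.6% and 3.11% were higher in these comparisons. The 5 genes had sums of 69999 and 75203 CPM in wild type, against 44704 and 45734 CPM in pnet2_ab. They summed to 49646 to 51795 CPM in the NTL6-labelled, 53021 to 61430 CPM in the NTL9-labelled and 51914 to 54049 CPM in the NTL12-labelled line, and their part in the results was not tested.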

How the data were processed

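Leaf messenger RNA of 5 genotypes was sequenced, with 2 libraries each. Gene-level raw counts were deposited by the authors, who also deposited FPKM. The submitters' processing notes name HISAT2 2.0.4 and HTSeq 0.6.1p1, with TAIR10 as the build. Libraries were made with a strand-specific protocol per the labels' protocols, while the strand setting of counting and the handling of reads that map to several places are not given in the sources used here, so counts of overlapping or near-identical genes carry that uncertainty. No column of per-sample values went unmapped.

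Library totals were 22.6 to 28.3 M counts, and scaling factors were lowest in wild type (0.884 and 0.907) and highest in pnet2_ab (1.082 and 1.068). Libraries of a genotype were not duplicates: chi-square divided by its degrees of freedom was 6.11 to 9.75. The test was edgeR 4.0.16 in R 4.3.3: filterByExpr by genotype, TMM scaling, 1 fit over all 10 libraries, the quasi-likelihood F-test, Benjamini-Hochberg adjustment over 20334 genes and a threshold of 0.05. Errors of log2 fold changes are approximate standard errors, taken as the absolute change divided by the square root of F. They can be too narrow where a genotype has few counts, as for XTH19 in wild type. CPM uses TMM-scaled totals and the authors' FPKM was used only for levels between genes. The fit was tested on simulated data with a spread common to all genes and changes only in well-counted genes. That test does not bear on members with few counts. Folds against a genotype with 0 counts use a floor of 3 counts over its 2 libraries.

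Alternatives were DESeq2 1.42.0, RLE scaling, no filter, only the genotypes compared, a replicate block, and leaving out each library. Total-count scaling and the library sizes implied by FPKM were added after seeing the data. Coordinates of genes are the authors' (TAIR10), and sequences are RefSeq TAIR10.1 with RefSeq coordinates. All 33 members overlap on the same strand in both.

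The members, gene lists and motifs were chosen with earlier results of these data known. Named are all members past 0.05 in a main comparison, up to 4 genes per other list by adjusted p, and the touch and NAC genes in full. XTH genes that missed the threshold, list genes named beyond this rule, the NTL6 and NTL9 check, the reading of the promoter rule as 2 falls and 2 rises, the coding windows of XTH17 to XTH20, and the catalytic-site pattern that placed them, which was loosened until it was found in these genes, were chosen after values were seen. Protein sequences were not used here.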

Additional observations from a re-analysis of the deposited data

How the results depend on the processing

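Among 110 calls of members over 10 comparisons, 70 were kept under all 17 alternatives and 0 changed sign under any. RLE scaling and the library sizes implied by FPKM kept all 110, DESeq2 kept 103, and the fit without a filter kept 108. With only the genotypes compared 5 members were lower in the NTL12-labelled line than in pnet2_ab in place of 3, and 1 was lower in the NTL9-labelled line than in wild type in place of 2. Total-count scaling, added after seeing the data, moved the median of all genes from 0.04 to 0.30 in pnet2_ab against wild type and from -0.01 to -0.15 in the NTL9-labelled line against pnet2_ab. Under it 5 members were lower in the NTL12-labelled line than in pnet2_ab, 2 in place of 7 were lower in that line than in wild type, and 3 in place of 5 were higher in the NTL9-labelled than in the NTL12-labelled line.

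Leaving out each library in turn gave 9 to 12 higher and 5 to 6 lower in pnet2_ab against wild type. Against pnet2_ab it gave 2 to 3 higher and 8 to 11 lower in the NTL6-labelled line, 5 to 6 and 5 to 9 in the NTL9-labelled line, and 2 to 3 and 1 to 4 in the NTL12-labelled line. Against wild type it gave 3 higher and 4 to 6 lower, 3 to 6 and 1 to 3, and 4 to 9 and 4 to 8 in the same order of lines. Between lines it gave 1 higher and 2 to 5 lower (NTL6 against NTL9), 2 to 3 and 6 to 8 (NTL6 against NTL12), and 3 to 7 and 5 to 6 (NTL9 against NTL12). A genotype left with 1 library was taken to vary like the others. Same-numbered libraries did not deviate together (correlations -0.04 to 0.03 over 10 pairs of genotypes, 0 above 0.1). No shift shared by library number was thus seen, which does not show whether same-numbered samples were grown or prepared together. With the replicate number as a block 106 of the 110 calls were kept. The block ended those of XTH4 (adjusted p = 0.0568) and XTH20 (0.0547) in the NTL12-labelled line against pnet2_ab, of XTH9 between the NTL6-labelled and NTL12-labelled lines (0.0587), and of XTH8 between the NTL9-labelled and NTL12-labelled lines (0.0518). The cause of these shifts was not tested. Depth limits the lowest members: XTH14, XTH18, XTH20 and XTH29 rest on few counts.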
